A study of Mus musculus with 2 samples.

Results

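Defensins are small cationic peptides that kill microbes, and in the mouse they are encoded by tandem gene clusters. The members described here are the protein-coding genes of chromosomes 1 to 19 in GENCODE M21 whose symbol starts with Defa (alpha-defensins, the cryptdins of the small intestine) or Defb (beta-defensins). They number 64 of 20807 protein-coding genes, 22 of them Defa and 42 Defb. ChIP-seq, the sequencing of DNA fragments brought down with an antibody, was run against CTCF in intestine of B6NCrl mice on postnatal day 0. The tissue was powder pooled from the intestines of several dissections, sex was not recorded, and the group had 2 biological replicates under those labels, which share 1 tissue pool as their source. The series has 1 group, so no comparison of conditions was possible, and peak lists hold no expression values against which the tissue label could be checked.

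The zinc-finger protein CTCF recognises a long DNA motif, halts the extrusion of chromatin loops in one orientation of that motif and marks borders between chromatin domains. Alpha-defensins are made by Paneth cells at the base of the small intestinal crypts, where the matrilysin Mmp7 cuts the precursor to the active peptide. Mouse Paneth cells form after birth, so the newborn intestine is largely tissue that precedes them. Beta-defensins are made by many epithelia, and a large share of them are known from the epididymis, where some coat sperm. The peak lists hold all cells of the intestine together, so fewer bound cells and weaker binding per cell cannot be told apart.

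The deposited lists give, for each peak, an interval on the mouse assembly mm10, a summit and a signal, which is the authors' enrichment value and has no stated normalization. The optimal list, filtered for reproducibility between the replicates by the irreproducible discovery rate (IDR), held 73465 peaks, and the unfiltered pooled list and the list of each replicate held 300000 each. The lists give no read counts, so the sequencing depth is unknown. A gene is called bound here where an optimal summit lies within 10 kb of any of its transcription start sites.

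Members lying at most 500 kb from the next formed 5 clusters, and no member stood alone. On chromosome 2 the cluster from Defb23 to Defb25 (chr2:152459055-152623053) held 11 members. The cluster from Defb48 to Defb42 on chromosome 14 (chr14:62977524-63058149) held 5, and the pair Defb18 and Defb41 stood on chromosome 1 (chr1:18236473-18265138). Chromosome 8 carried the other 46, with 14 Defb genes from Defb40 to Defb7 (chr8:18974940-19497775) and 32 genes from Defb33 to Defb13 (chr8:20892669-21948850). The last of these encloses the whole alpha-defensin array, from Defa21 to Defa24 (chr8:21025545-21735471), flanked by 10 Defb genes.

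Defensin genes had fewer CTCF summits nearby than protein-coding genes as a whole, and the shortfall differed by cluster. Within 10 kb, 17 of 64 members (26.6%) had an optimal summit, with an exact 95% binomial interval of 16.3 to 39.1%, beside 74.4% of all protein-coding genes. The share was 1 of 22 (4.55%, interval 0.115 to 22.8%) for Defa and 16 of 42 (38.1%, interval 23.6 to 54.4%) for Defb. Such intervals cover the counting of genes only, and neighbouring copies that share a summit are not independent draws. The 17 bound members drew on 24 distinct summits.

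Narrower and wider windows gave the same order. Within 2 kb, 7 of 64 members had a summit, none of them Defa and 7 of 42 Defb (16.7%), beside 53.9% of all genes. The 0 of 22 Defa genes allows a share of up to 13.6%, the limit for a count of 0 being taken as 3 counts here and below. Within 50 kb, 6 of 22 Defa (27.3%) and 34 of 42 Defb (81.0%) had one, beside 89.2% of all genes. The pooled list, which also holds weak peaks, gave 2 of 22 Defa (9.09%) and 29 of 42 Defb (69.0%) within 10 kb, beside 88.1% of all genes. The Defa share stayed below the Defb share and below the background in each of these settings.

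The chromosome 2 cluster was bound at all 11 members (100%), and the chromosome 14 cluster at 3 of 5 (60%). On chromosome 8 the count was 3 of 46, made up of Defa25, Defb50 and Defb13. None of the 14 members from Defb40 to Defb7 was bound, which allows a share of up to 21.4%, and neither was Defb18 or Defb41 on chromosome 1. The members just inside the 10 kb limit were Defb48 at 9.24 kb, Defa25 at 8.86 kb and Defb13 at 8.77 kb, and the nearest outside it were Defb12 at 11.9 kb, Defa21 at 16.8 kb and Defb35 at 17.2 kb.

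**Figure D1:**
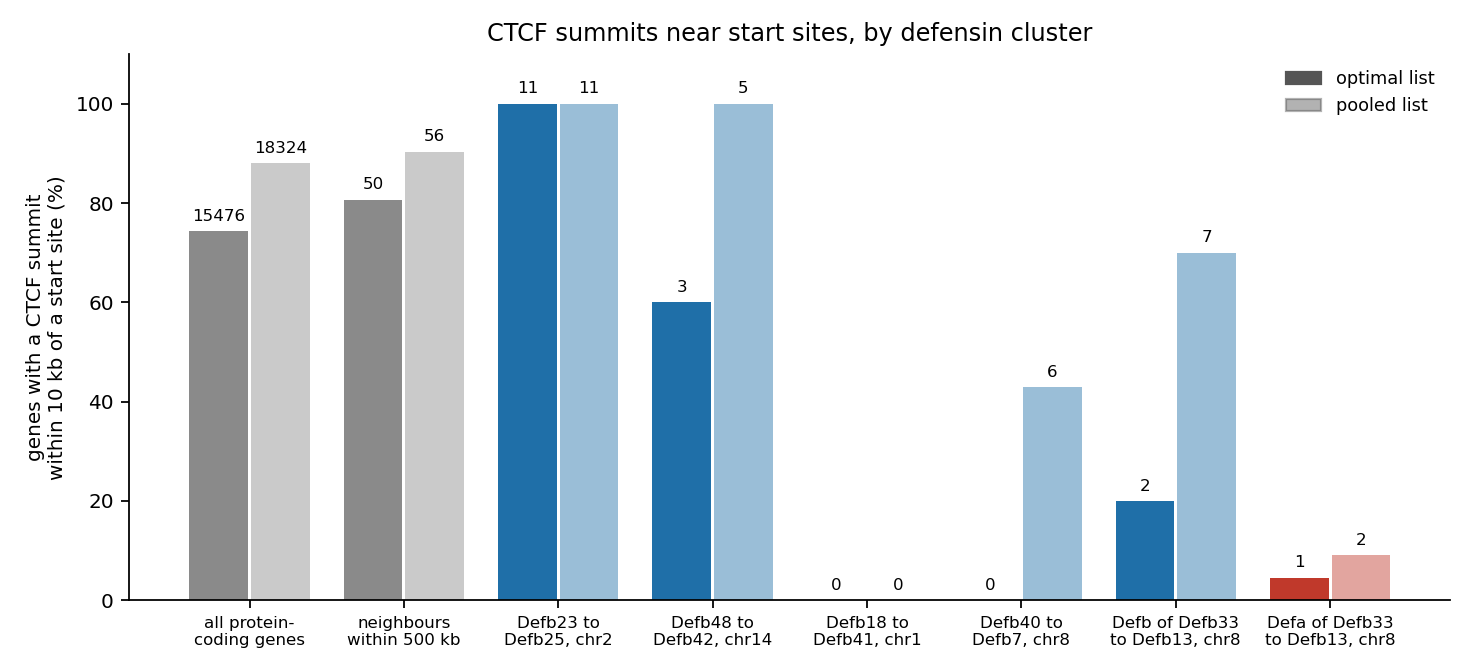
Share of genes (%) with a CTCF summit within 10 kb of a start site, in the optimal list (dark bars) and the pooled list (light bars), with the number of such genes above each bar; grey bars show all protein-coding genes and the non-defensin genes within 500 kb of the clusters. All 11 members of the chromosome 2 cluster were bound in both lists, whereas 0 of 14 members from Defb40 to Defb7 and 1 of 22 Defa genes were bound in the optimal list.

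Genes outside the clusters did not share the low counts, whereas other genes inside them did. Of 62 other protein-coding genes within 500 kb of a cluster, 50 (80.6%) were bound, and of the 13 inside the clusters whose symbols start with neither Defa nor Defb, 3 (23.1%) were. Those 3 were Gm17416 on chromosome 2 and Spag11a and Gm14851 on chromosome 8. Spag11a encodes an epididymal protein related to beta-defensins. Symbols alone do not tell whether others of the 13 are related to defensins as well. Other large families that sit in tandem arrays were also seldom bound. Olfactory receptor genes (Olfr) were bound in 142 of 1128 cases (12.6%) and vomeronasal receptor genes (Vmn) in 12 of 329 (3.65%). The low share is thus not a property of defensin genes alone.

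Among the beta-defensins of chromosome 2, CTCF summits sat at the promoters of Defb28, Defb29, Defb36 and Defb21. These 11 genes include Defb22, whose product is a known coat protein of sperm. The sequences upstream of 3 of the starts hold both the summit and a CTCF motif, and they are shown because they are the only promoters among the 41 defensin genes matched in the RefSeq promoter table (12 Defa and 29 Defb) that do. They are printed 5′ to 3′ on the gene's strand, on build GRCm38.p6, from the RefSeq table's first base to the base before the first annotated start. Capitals mark the 19 bases that match the CTCF matrix, which lies on the opposite strand of the gene in Defb29 and Defb36.
Defb28 upstream, chr2:152518005-152518254, plus strand: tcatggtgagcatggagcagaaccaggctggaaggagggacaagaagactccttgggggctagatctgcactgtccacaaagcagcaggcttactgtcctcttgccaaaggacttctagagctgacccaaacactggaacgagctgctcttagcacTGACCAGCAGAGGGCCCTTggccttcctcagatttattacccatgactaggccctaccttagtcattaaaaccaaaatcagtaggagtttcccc
Defb29 upstream, chr2:152540099-152540291, minus strand: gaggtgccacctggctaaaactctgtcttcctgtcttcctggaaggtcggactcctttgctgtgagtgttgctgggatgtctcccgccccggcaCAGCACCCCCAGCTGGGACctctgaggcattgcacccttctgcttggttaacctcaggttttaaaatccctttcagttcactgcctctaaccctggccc
Defb36 upstream, chr2:152604077-152604326, plus strand: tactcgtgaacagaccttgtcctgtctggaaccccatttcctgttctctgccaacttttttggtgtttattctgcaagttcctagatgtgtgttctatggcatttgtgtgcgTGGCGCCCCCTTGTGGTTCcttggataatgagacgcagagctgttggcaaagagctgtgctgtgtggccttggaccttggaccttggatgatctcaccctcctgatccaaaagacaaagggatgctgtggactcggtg
A motif was also called in the RefSeq promoter of Defb33, where no summit lay. Of the RefSeq promoters of 300 bases on chromosomes 1 to 19, 10.6% held a motif, beside 0 of 12 for Defa and 4 of 30 for Defb, Defb genes having 30 such promoters over 29 genes.

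The summit before Defb28 lay 105 bases upstream of the start and had a signal of 28.8 in the optimal list, with 14.5 in replicate 1 and 13.1 in replicate 2. That before Defb29 lay 101 bases upstream with a signal of 109, and 43.7 and 66.5 in the replicates. At Defb36 the summit was 144 bases upstream with a signal of 189.8, and 91.9 and 97.4 in the replicates. The Defb36 peak was thus the strongest of the 3 in both replicates. The Defb28 peak, the weakest, lay at the 18.3rd percentile of all optimal peaks. Defb21 had a summit 423 bases upstream (signal 97.9) and another inside its intron (22.1).

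The remaining chromosome 2 members were bound at a distance, and often by the same summits. Defb23 and Defb20, the first pair of the cluster, lay 6.55 and 5.90 kb from a summit of signal 293, and Defb20 4.43 kb from another of 109. Defb29 had the largest nearby signal after Defb25, 370 at 4.72 kb, with 188 in replicate 1 and 181 in replicate 2. Defb25, the last gene, had 445 at 7.32 kb, with 224 and 223 in the replicates, which is the strongest summit within 10 kb of any member and lies at the 95.02nd percentile of optimal peaks. Defb22 (76.1 at 2.91 kb), Defb19 (174 at 7.05 kb) and Defb45 (189.8 at 4.78 kb) had lower signals than Defb29 and Defb25. Defb26 had only the weak Defb28 summit, 6.46 kb from its start. Defb19 had 5 optimal summits within 10 kb, more than any other member.

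Over its span the chromosome 2 cluster held 20 optimal summits, or 122 per Mb (exact Poisson 95% interval 74.5 to 188), beside 29.9 per Mb over chromosomes 1 to 19. The widest interval between neighbouring summits that touched it was 26.0 kb. Both flanks were dense as well, with 16 summits in the 100 kb before Defb23 and 11 in the 100 kb after Defb25. The closely spaced summits thus ran on beyond the defensin genes on both sides.

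**Figure D2:**
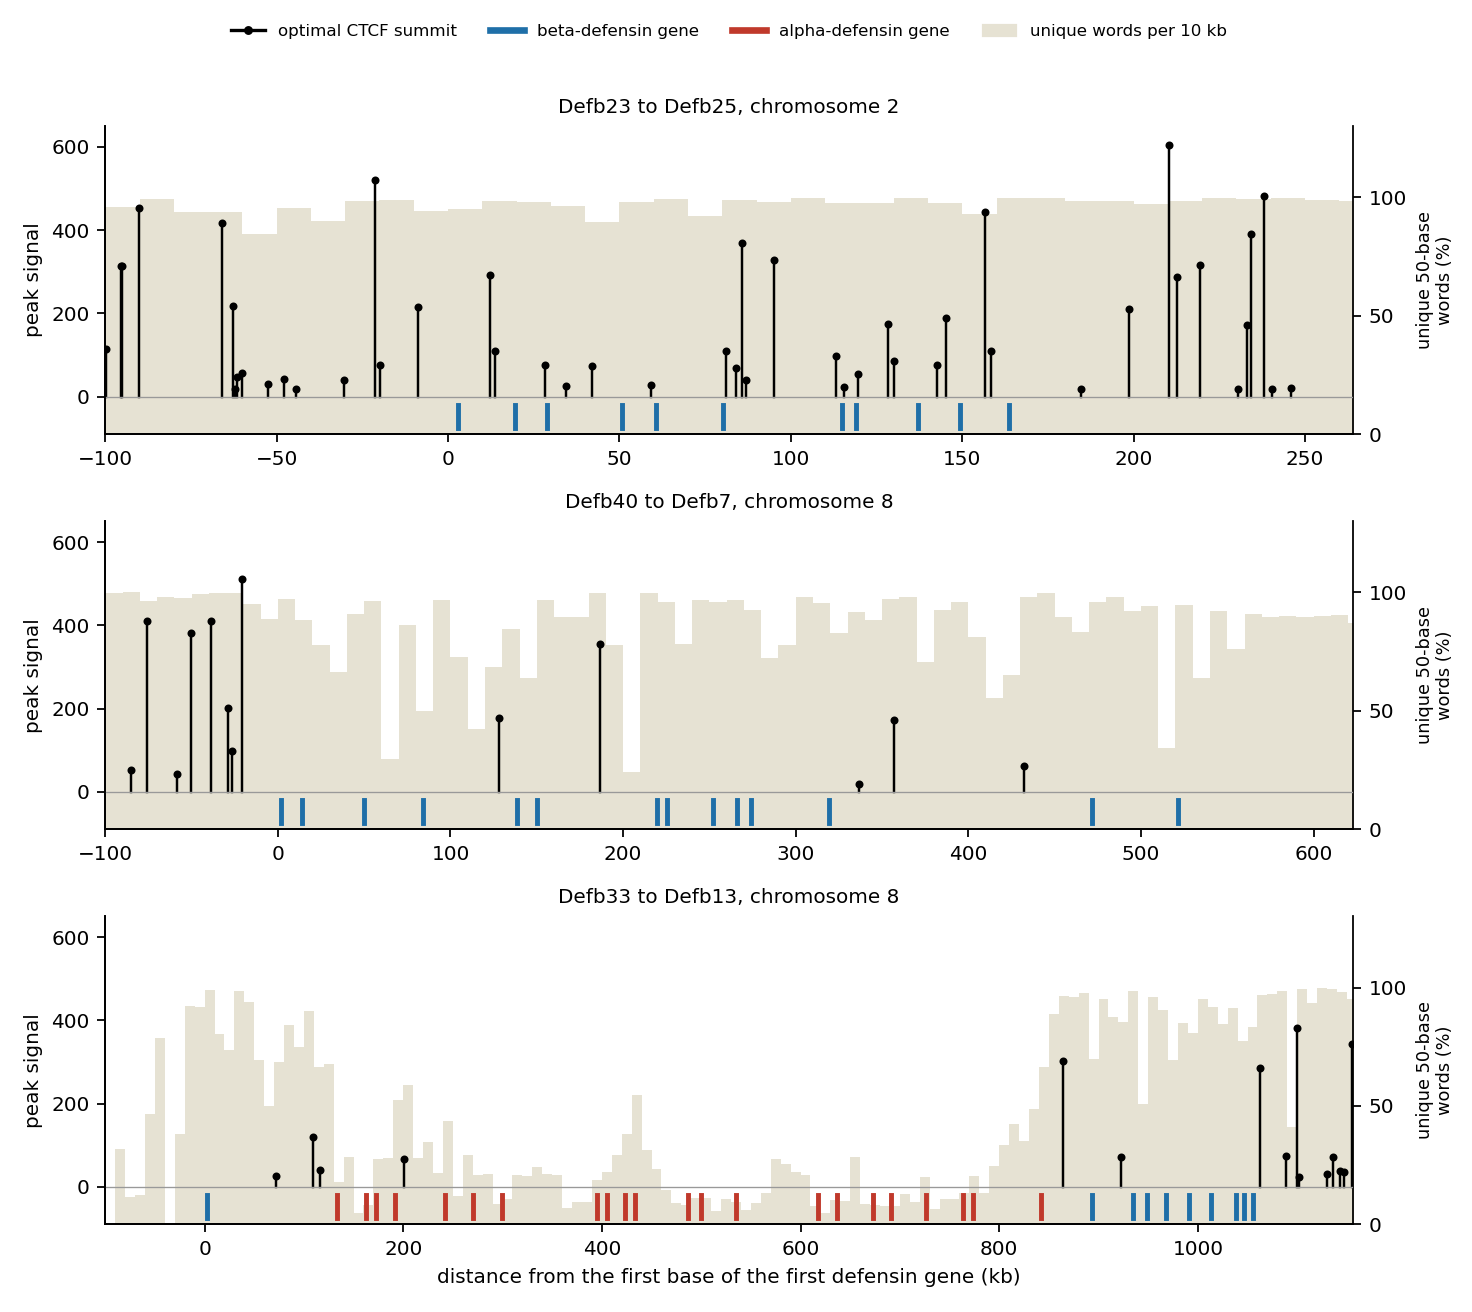
Optimal CTCF summits (black, height is the peak signal on the left axis), Defb genes (blue) and Defa genes (red) against distance in kb from the first defensin gene of each cluster, with the share of unique 50-base words per 10 kb shaded (right axis, %). Summits are spaced closely through the chromosome 2 cluster. In the second cluster they leave the first 128 kb from Defb40 without any and then resume, and they leave 642 kb of the alpha-defensin array without any. Shading is left out where a bin is unsequenced.

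A set of the chromosome 2 sites shared one core. Of the 16 optimal peaks in the cluster with a motif, 5 (31.3%) held the word CAGAAGAG inside it, beside 18.8% of the 51602 optimal peaks with a motif on chromosomes 1 to 19. The word was chosen after the sites were seen. None of the motif peaks inside the other clusters held it, but these were only 1 on chromosome 14 and 5 in each chromosome 8 cluster. Peaks outside the clusters did hold it. In the 100 kb flanks of the chromosome 2 cluster these had signals of 113 and 315 before Defb23 and 173 after Defb25. A peak of signal 41.8 on chromosome 8, 61.7 kb from Defb40, held it too. The motif of that chromosome 8 peak is the same, letter for letter, as that of the Defb25 site below. In 7 of the 16 at least 50% of the motif's bases were soft-masked as repeats in the assembly (43.8%, beside 28.7%). Each site is shown on the motif strand with 20 bases on either side of the motif in capitals, because the likeness of the sites can be read from them.
Defb22 intron site, chr2:152487201-152487259, minus strand: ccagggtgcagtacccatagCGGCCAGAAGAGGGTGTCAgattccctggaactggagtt
Defb21 upstream site, chr2:152572290-152572348, minus strand: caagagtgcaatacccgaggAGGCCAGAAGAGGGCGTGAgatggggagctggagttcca
Defb19 intron site, chr2:152578525-152578583, minus strand: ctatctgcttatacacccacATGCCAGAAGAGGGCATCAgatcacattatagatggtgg
Defb45 upstream site, chr2:152601743-152601801, minus strand: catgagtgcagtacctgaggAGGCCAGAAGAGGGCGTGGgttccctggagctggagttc
Defb25 downstream site, chr2:152617535-152617593, plus strand: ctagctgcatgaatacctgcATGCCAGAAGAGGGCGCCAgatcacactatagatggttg
Their signals were 76.1, 97.9, 55.5, 76.5 and 110, all below the 370 and 445 of the strongest sites near Defb29 and Defb25, which do not hold the word.

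On chromosome 14, binding gathered at the Defb42 end. Defb30 and Defb42, whose gene bodies overlap, shared 2 summits. The stronger, with a signal of 321 (164 in replicate 1 and 157 in replicate 2), lay in an intron of Defb42, 1.01 kb upstream of the nearest Defb30 start. The weaker, with a signal of 47.4, lay 219 bases upstream of a Defb42 start, and its best motif score of 9.16 fell just under the threshold of 9.35. Defb48 at the other end was bound by a summit outside the cluster. Between them Defb47 and Defb43 had none within 10 kb, with the nearest at 22.8 and 36.5 kb, although every one of the 5 members had a peak within 10 kb in the pooled list. The cluster's 2 summits correspond to 24.8 per Mb (3.004 to 89.6), a density within counting error of the 29.9 per Mb of the chromosomes.

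The pair on chromosome 1 had no summit inside its 28.7 kb, which allows up to 105 per Mb, and none in the pooled list. Defb41 lay 23.9 kb and Defb18 51.6 kb from the nearest summit, both on the Defb41 side. Of the 50-base words around each, 98.8% occurred once in the genome.

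The 14 beta-defensins from Defb40 to Defb7 include the mouse relatives of the human inducible defensins, among them Defb4, Defb14 and Defb3. Their span of 523 kb held 5 optimal summits, all intergenic and all with a motif, or 9.56 per Mb (3.11 to 22.3). None lay within 10 kb of a member. The nearest was 11.9 kb from Defb12, with a signal of 178 (87.6 in replicate 1 and 88.7 in replicate 2), and the strongest, 355 (167 and 191), was 32.6 kb from Defb14 and 3.90 kb from Spag11a. Defb7, at the far end, was 87.7 kb from any summit, the largest distance of all 42 Defb genes. The stretch of 150 kb from the Spag11a summit to the next held 6 members and no summit.

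Defb33 to Defb13 is the longest cluster, at 1056 kb, and held 6 optimal summits or 5.68 per Mb (2.08 to 12.4), the lowest density of the 4 clusters with a summit inside. Among its 10 Defb genes only Defb50 and Defb13 were bound. Defb50 had a summit of signal 71.3 at 8.32 kb, whose best motif score, 9.32, fell just under the threshold. Defb13, the last gene, had the summit of 286 outside the cluster. Defb1, the constitutively made beta-defensin of epithelia, lay 19.996 kb from a summit of 302 (146 in replicate 1 and 156 in replicate 2), which stands between it and the alpha array.

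The alpha-defensin array held few summits over a long span. Across 710 kb with 22 Defa genes and 12 annotated pseudogenes it held 1 optimal and 2 pooled summits, or 1.41 optimal summits per Mb (0.0357 to 7.85). From the Defa25 summit to the one before Defb1 there were 663 kb without an optimal summit, 642 kb of them inside the array, a gap that holds 18 members and no unsequenced base, and that ranks 253 by length among 71737 gaps between neighbouring summits on chromosomes 1 to 19, whose median is 11.8 kb. The median distance from a Defa start to the nearest optimal summit was 156 kb (range 8.86 to 329, n = 22 genes), against 21.8 kb (0.101 to 87.7, n = 42) for Defb and 1.37 kb for all protein-coding genes. Defa36, near the middle of the gap, was the farthest at 329 kb. Of the Defa genes 13 of 22 lay more than 100 kb from a summit and 0 of 42 Defb genes did.

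The same array is made of related copies, some of them identical over long stretches, and this bears on whether short reads can be placed in it. Of 50-base words on a 20-base grid within 10 kb of a start site, a median of 15.2% (8 to 59%, n = 22) occurred once in the genome for Defa, 95.4% (64.5 to 98.8%, n = 42) for Defb and 96.4% for all protein-coding genes. The 250 bases before Defa21 and Defa22, each the start of its own copy, are the same letter for letter, and one copy is printed to show what such a read would meet.
Defa21 upstream, same in Defa22, chr8:21025295-21025544, plus strand: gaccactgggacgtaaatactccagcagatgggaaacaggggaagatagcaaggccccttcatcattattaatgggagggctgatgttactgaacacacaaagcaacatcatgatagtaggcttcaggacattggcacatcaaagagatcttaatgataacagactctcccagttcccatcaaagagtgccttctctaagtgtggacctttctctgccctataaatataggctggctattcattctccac
The RefSeq promoters of Defa23 and Defa31, of Defa2 and Defa20, and of Defa36 and Defa37 were also identical over 300 bases. Over the 66 pairs of the 12 Defa promoters the median identity was 80.9% (55.1 to 100%), and over the 406 pairs of the 29 Defb promoters it was 47.4% (42.3 to 87.8%). How long the reads were and how a read that matches several places was treated is not given in the sources used here.

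The bound shares were also counted by ranges of unique words. Of all protein-coding genes with under 50% unique words, 52 of 825 (6.30%) were bound, and of the 21 Defa genes in that range 1 (4.76%) was. The range is wide, and 14 of the 22 Defa genes had under 20% unique words, so the 825 genes need not be as repeated. A count of 1 is also too small to set the 2 shares apart or to call them alike. The Defb shares were below those of all genes in each range that held Defb genes. In the range from 95 to 100%, 13 of 23 Defb genes (56.5%) were bound beside 85.4% of all genes, and in the range from 90 to 95% 2 of 9 (22.2%) beside 74.4%. From 50 to 80% it was 0 of 5 beside 31.7%, and from 80 to 90% 1 of 5 beside 52.1%. On chromosome 8, 2 of 24 Defb genes (8.33%) were bound and 0 of the 6 with at least 95% unique words. On chromosomes 1, 2 and 14 together 14 of 18 (77.8%) were. By cluster that was 11 of 11 on chromosome 2, 3 of 5 on chromosome 14 and 0 of 2 on chromosome 1. Of the 17 genes there with at least 95% unique words 13 (76.5%) were bound, beside the 85.4% of all genes. How much of these counts stems from read placement was not tested.

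**Figure D3:**
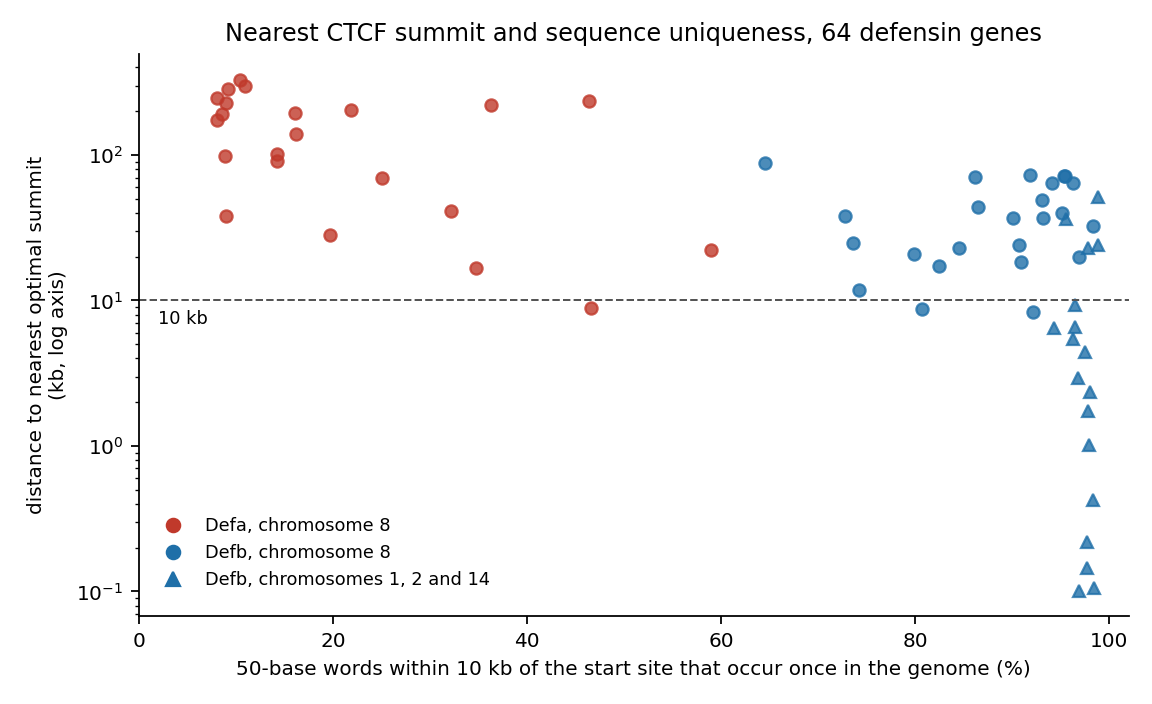
Distance from each of 64 defensin genes to the nearest optimal CTCF summit (kb, log axis) against the share of 50-base words within 10 kb of its start sites that occur once in the genome (%), for Defa (red), Defb on chromosome 8 (blue circles) and Defb elsewhere (blue triangles). Of the Defa genes 21 lie below 50% unique words and 1 of the 22 lies under the dashed 10 kb line, while the Defb genes of chromosome 8 lie mostly above the line at shares of 64.5 to 98.3%.

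One repeated element put the alpha array's single peak beside copies without a peak. The Defa25 summit, at position 21093306 and 8.86 kb downstream of the Defa25 start, had a signal of 66.0 (25.7 in replicate 1 and 41.7 in replicate 2) and lay in a sequence that recurs on chromosome 8, where 17 to 24 Mb was searched. Linking peaks in or near the clusters to their copies by alignment gave 20 copies, 12 in the alpha array, 4 from Defb40 to Defb7, 1 just beyond Defb7 and 3 between Defb33 and Defa21. Of these 20, 18 hold a CTCF motif. The copies were assembled after their peaks were seen, and the search started from optimal peaks. Copies with an optimal peak were therefore included by choice, and the counts are a description. Below, 4 copies with an optimal peak are followed by 4 without, each on the motif strand with the motif in capitals.
Copy near Defa25, optimal peak, chr8:21093282-21093340, minus strand: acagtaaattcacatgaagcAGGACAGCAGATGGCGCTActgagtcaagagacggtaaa
Copy downstream of Defb8, optimal peak, chr8:19407392-19407450, minus strand: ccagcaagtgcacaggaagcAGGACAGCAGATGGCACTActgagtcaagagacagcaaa
Copy near Defb3, optimal peak, chr8:19311804-19311862, plus strand: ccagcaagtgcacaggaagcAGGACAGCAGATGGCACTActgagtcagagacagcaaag
Copy between Defb33 and Defa21, optimal peak, chr8:20964697-20964755, minus strand: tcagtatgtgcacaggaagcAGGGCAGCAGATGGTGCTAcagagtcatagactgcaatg
Copy near Defa31, no peak, chr8:21194602-21194660, minus strand: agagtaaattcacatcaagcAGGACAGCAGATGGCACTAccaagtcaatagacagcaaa
Copy near Defa20, no peak, chr8:21502384-21502442, minus strand: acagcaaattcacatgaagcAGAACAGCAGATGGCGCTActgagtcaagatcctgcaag
Copy near Defa36, no peak, chr8:21420473-21420531, minus strand: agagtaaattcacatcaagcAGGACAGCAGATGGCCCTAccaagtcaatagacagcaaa
Copy upstream of Defb8, no peak, chr8:19464954-19465012, plus strand: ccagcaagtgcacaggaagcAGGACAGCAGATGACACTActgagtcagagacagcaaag
The capitals of the copies near Defb8 (the bound one), Defb3 and Defa31 are the same 19 letters, and so are those of the copies near Defa23, Defa3 and Defa17, which had no peak in any list.

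The 11 other copies of the array recur at fixed places. Those near Defa23, Defa31, Defa3 and Defa17 lie 2.995 to 3.031 kb downstream of the start, those near Defa33 and Defa32 4.18 and 4.17 kb downstream, and those near Defa22, Defa2, Defa36, Defa20 and Defa37 6.87 to 6.94 kb upstream. They are 86.8 to 89.8% identical to the Defa25 copy, and all 11 hold a motif, with scores of 12.5 to 17.8 beside 18.3 for the Defa25 copy. None had an optimal summit, and 1, near Defa22, had a weak pooled one (signal 4.70, listed in replicate 2 at 2.78 and in no peak of replicate 1). Within 200 bases of these 11 copies 0 to 55% of the 50-base words were unique, with the 55% at the Defa22 copy, against 95% at the Defa25 copy.

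Outside the array the 8 copies had 95 to 100% unique words, and peaks at 5 of them. The bound copy downstream of Defb8 had a signal of 61.2 (27.5 in replicate 1 and 32.8 in replicate 2), that near Defb3 18.5 (4.05 and 14.6) and that between Defb33 and Defa21 26.8 (12.3 and 13.6). The copies near Defb5 and Defb7 had pooled peaks of 22.5 and 16.6 and no optimal one. The remaining 3 copies had no peak, although all of their words were unique; 2 of them lack a motif, and the third, upstream of Defb8, has a motif of score 12.2. Peaks were thus listed at 7 of the 20 copies, and at 6 of the 9 with at least 95% unique words. Of the 7, the 4 with an optimal peak were starting points of the search, so their peaks were fixed in advance. The other 3 had a peak in the pooled list and not in the optimal one. These counts therefore do not measure how peaks depend on unique words.

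**Figure D4:**
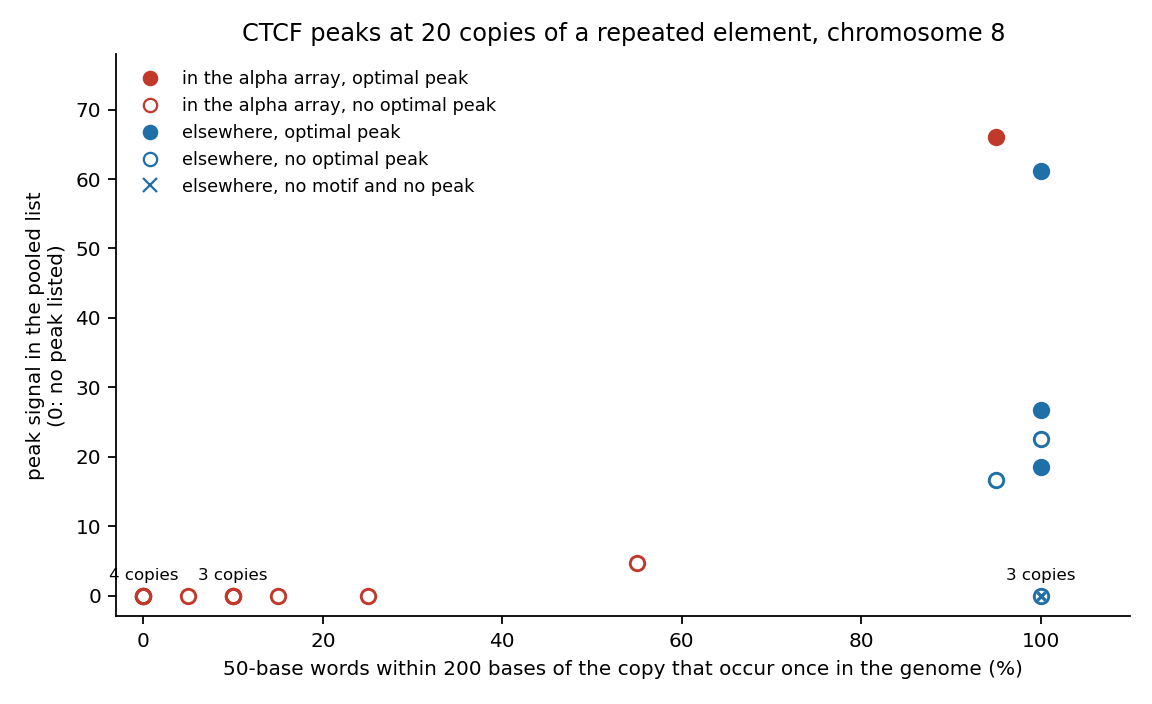
Signal of the pooled CTCF peak at each of 20 copies of the repeated element on chromosome 8 (0 where no peak is listed) against the share of 50-base words within 200 bases that occur once in the genome (%). Copies of the alpha array (red) lie at 0 to 55% without an optimal peak, apart from the Defa25 copy at 95% with a signal of 66.0, and copies elsewhere (blue) lie at 95 to 100% with signals from 0 to 61.2; filled points have an optimal peak and points on the same spot are counted beside it.

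Motif instances were counted over whole clusters. At the threshold reached by 5% of flanking windows, the alpha array held 84 motif instances, or 118 per Mb beside 145 per Mb over chromosomes 1 to 19. An optimal summit lay over 1 of the 84 (1.19%), beside 15.5% over the chromosomes. In 4 of the 84 all words around the instance were unique. From Defb40 to Defb7, 5 of 51 instances (9.80%) were occupied and 38 of 51 had unique words. In the chromosome 2 cluster 18 of 43 (41.9%) were occupied and 36 of 43 had unique words, at 262 instances per Mb. On chromosome 14, 1 of 16 instances (6.25%) was occupied and 13 of 16 had unique words, a count too small to set apart from the 15.5% over the chromosomes. On chromosome 1 both of the 2 instances had unique words and neither was occupied. At the stricter threshold of 1%, 1 of 8 instances of the alpha array was occupied, with 2 of the 8 unique. The counts were 5 of 8 from Defb40 to Defb7, 9 of 13 on chromosome 2 and 1 of 3 on chromosome 14. Over the chromosomes the share was 54.7%.

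Most peaks at defensin genes carried the motif. Of the 33 optimal peaks inside the clusters 27 (81.8%) had a motif within 100 bases of the summit, as did 18 of the 24 (75%) near a start site, beside 71.7% of the optimal peaks on the 4 chromosomes with defensin genes and 4.15% of the flanking windows there. At the stricter threshold of 1% the share was 57.6% of the 33, beside 42.5% of the optimal peaks on those chromosomes. Of these 33, 23 were intergenic, 6 lay at promoters and 4 in introns.

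At the outer ends of the clusters the nearest summit outside lay a median of 20.7 kb from the last defensin base (2.25 to 343 kb, n = 10 ends), with 4 ends within 10 kb and 3 beyond 100 kb. All 10 end summits were found in both replicates, 9 had a motif, and 6 exceeded the median signal of 76.0 on the optimal list. The motif pointed into the cluster at 6 ends and away from it at 3. CTCF motifs that face each other are known to anchor loops, but no contact data were used here. Sites are shown for the Defb40, Defb13, Defb48 and Defb42 ends, where the nearest summit had a signal of at least 274. The site between Defa24 and Defb1 is shown too, but it lies inside a cluster and is no cluster end. All are on the motif strand with the motif in capitals.
Defb40 side, chromosome 8, chr8:18954163-18954221, plus strand: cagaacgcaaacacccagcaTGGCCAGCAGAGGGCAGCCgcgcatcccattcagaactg
Defb13 side, chromosome 8, chr8:21955492-21955550, minus strand: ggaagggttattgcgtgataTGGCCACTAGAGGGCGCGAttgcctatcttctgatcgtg
Between Defa24 and Defb1, chromosome 8, chr8:21756560-21756618, plus strand: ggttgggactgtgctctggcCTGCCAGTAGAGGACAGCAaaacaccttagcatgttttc
Defb48 side, chromosome 14, chr14:62975252-62975310, minus strand: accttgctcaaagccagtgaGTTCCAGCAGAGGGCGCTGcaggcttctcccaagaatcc
Defb42 side, chromosome 14, chr14:63066804-63066862, plus strand: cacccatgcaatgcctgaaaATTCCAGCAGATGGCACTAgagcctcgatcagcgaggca

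The Defb40 end had a strong site. A summit of 512 (243 in replicate 1 and 272 in replicate 2), at the 98.3rd percentile of optimal peaks and with its motif pointing into the cluster, stood 20.8 kb outside Defb40. With it, 8 summits lay in the 100 kb outside that end, some of them in the genes Xkr5 and Agpat5, and the first summit inside the cluster came 128 kb after the first base of Defb40. The Defb7 end had no such site, with the nearest summit 205 kb away at a signal of 52.0 and no motif. Of the 50-base words on the way to it 79.1% were unique. The nearest summit to the Defb33 end was 343 kb away at 58.6, but 100 kb of that stretch are unsequenced and 20.8% of its words were unique, so the lack of a listed peak says little there.

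At the Defb13 end a summit of 286 (144 and 143) stood 6.68 kb outside with its motif pointing in. Its 301 bases are 89.7% identical to those of the peak of 178 near Defb12 in the other chromosome 8 cluster, so that both copies of this sequence were bound. The alpha array itself had a summit of 41.2 at 16.8 kb before Defa21, with 120 (58.7 and 63.5) at 24.2 kb, both pointing in, and the summit of 302 at 21.1 kb after Defa24 pointing away.

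On chromosome 14 both end sites were strong and pointed away from the genes, 274 (139 and 134) at 2.25 kb before Defb48 and 403 (201.1 and 204) at 8.68 kb after Defb42. On chromosome 2 the site of 215 at 8.64 kb before Defb23 pointed in, and the strongest within 100 kb, 522 at 21.4 kb, pointed away. After Defb25 the nearest was weak, 19.4 at 20.6 kb, and the strongest was 605 at 46.3 kb, at a promoter of H13, the signal peptide peptidase gene. The chromosome 1 pair had summits of 90.8 at 105 kb and 71.9 at 23.9 kb. By the nearest summit, signals were thus 215 to 512 at both chromosome 14 ends and the Defb23, Defb40 and Defb13 ends. They were 19.4 to 90.8 at the Defb25, Defb7, Defb33, Defb18 and Defb41 ends. By the strongest summit within 100 kb, the Defb25 end had 605 and the Defb41 end 158. The Defb7, Defb33 and Defb18 ends had no summit within 100 kb.

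The optimal list was filtered for peaks that rank alike in the 2 replicates, so the ranks below describe the peaks and are no independent check. All 35 optimal peaks inside the clusters or within 10 kb of a member had a summit within 100 bases in both replicate lists, and 32 of 35 stood among the strongest 73465 peaks in each. The exceptions were a peak near Defb22, the intron peak of Defb21 and the element copy near Defb3, which ranked 155957 in replicate 1 and 62066 in replicate 2. With 2 replicates from 1 pool, the spread covers the assay and not the spread between animals.

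**Figure D5:**
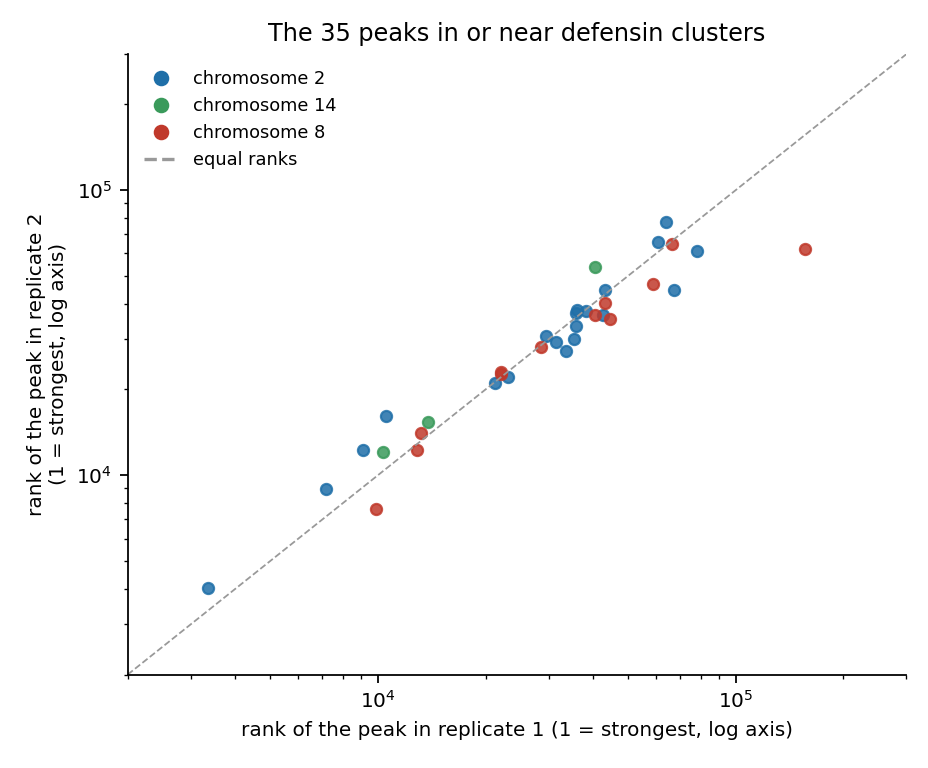
Rank of the 35 optimal peaks inside defensin clusters or within 10 kb of a member in the replicate 1 list against the replicate 2 list, both of 300000 peaks (1 is the strongest, log axes), coloured by chromosome. Points lie near the line of equal ranks, apart from the copy near Defb3 at 155957 in replicate 1.

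Genes that make, process or regulate gut antimicrobial peptides were listed by role, and 15 of the 24 found among the protein-coding genes (62.5%) were bound, beside 74.4% of all genes. Of the other effectors 5 of 11 were, led by the ribonuclease Ang4 with a signal of 145 at 1.99 kb, while the lysozyme gene Lyz1 of Paneth cells lay 20.6 kb from a summit. Of the processing and secretion genes, Kcnn4, a potassium channel of Paneth cells, had 391 at 2.03 kb and Xbp1, a regulator of secretory stress, 262 at 0.276 kb, whereas Mmp7 lay 22.2 kb away. Receptors and sensors were bound in 4 of 5 cases and transcription factors in 4 of 5, among them Ephb3 with 414 at 0.298 kb and Tcf7l2, the Wnt effector that drives Paneth cell genes, with 412 at 0.048 kb. Ccr6, a receptor for beta-defensins, at 12.2 kb, and Atoh1, the secretory lineage factor, at 19.3 kb, were not.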

How the data were processed

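CTCF peak lists of 2 replicates of 1 group were used. The authors deposited, for each peak, its interval, its summit offset and a signal, the peak caller's enrichment value; per the file headers and descriptions the build is mm10, the pooled list comes from both replicates' alignments plus 1 file whose role is unstated, and the optimal and conservative lists were filtered by IDR. The aligner, caller, read length or depth was not given in the sources used here. Signals served only to rank and describe peaks of the same list.

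Genes came from GENCODE M21 and sequence from GRCm38.p6, the mm10 assembly. The summit is the interval's start plus the offset. A 19-base CTCF matrix was trained on the 5000 strongest optimal peaks of the 15 autosomes that hold no defensin gene, in 6 rounds with a pseudocount of 1, and its score threshold is the one reached by 5% of flanking windows. Unique words were counted over both strands of the whole assembly, with words of 50 bases and, as an alternative, 36. Copies of a peak are alignments of at least 240 of the 301 bases around its summit, searched from 17 to 24 Mb of chromosome 8. Scripts were tested on simulated data. Python 3.11.15, numpy 2.4.6, scipy 1.17.1, numba 0.67.0, Biopython 1.88, BLAST 2.17.0 and matplotlib 3.10.9 were used.

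The members and lists were chosen with earlier results of these data known. The genes to be named were every bound member, the ends of each cluster, the farthest member of each family, Defb1 and the list of antimicrobial genes; the other genes named were chosen after their values were seen. With 1 group there was no test. Alternatives were the conservative and pooled lists, optimal peaks with a signal above the median, either replicate by itself, and other windows, starts, spans, word lengths and motif thresholds.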

Additional observations from a re-analysis of the deposited data

How the results depend on the processing

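Of 44 alternative values, 27 stayed within the error of the reported one and 17 moved. The error was the counting interval for shares and densities. For the end distance it was the SD of 5.47 kb between the 2 replicates. That SD comes from the 2 single-replicate medians, so the labels of those 2 values are no independent check. The share of unique words has no such error, so any change in it counted as moved. The pooled list raised the bound share to 48.4% of all members and 69.0% of Defb, and the density inside the clusters from 17.8 to 45.9 per Mb, beside 123 per Mb in that list over chromosomes 1 to 19. A 2 kb window gave 10.9% of all members, 0% of Defa and 16.7% of Defb, and a 50 kb window 62.5%, 27.3% and 81.0%. With peaks above the median signal the Defa share was 0%, since the Defa25 peak lies under that median, the density 10.3 per Mb and the median end distance 27.7 kb; 57.5% of all genes were then bound. Adding 50 kb on each side of the clusters gave 25.5 summits per Mb. The strict motif threshold lowered the share of cluster peaks with a motif from 81.8 to 57.6%, beside 42.5% on the chromosomes with defensin genes. The median share of unique words at members was 88.3%, with 81.3% for words of 36 bases and 91.3% within 2 kb. For either replicate by itself the 73465 strongest peaks of its list were taken, as many as the optimal list of both replicates holds. This gave 26.6% for all members, 4.55% for Defa and 38.1% for Defb both times. It also gave 16.7 to 18.9 summits per Mb and a median end distance of 14.6 to 22.3 kb. The filtering by IDR was not repeated. No paired analysis was possible because there was 1 group. The lists hold no read counts, so the absence of a peak in the alpha array does not show that CTCF was absent there.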

Other observations

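Some strong motif instances inside the defensin clusters lay outside the optimal list. In the chromosome 2 cluster 4 of the 13 instances at the 1% threshold had no optimal summit over them; 3 of these had a pooled summit, with signals of 13.6, 18.1 and 21.2, and the third of those lies in the body of Defb36. From Defb40 to Defb7 the 3 unoccupied instances of 8 also each had a pooled summit, with signals of 22.5, 5.71 and 9.40, the first of them the element copy near Defb5. In the alpha array 7 of 8 had neither, and 1 of those 7 had words that were all unique.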
